A study of Mus musculus with 32 samples.

Results

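The genes described here make, sense, move and export cholesterol. They are 32 of the 55487 genes in the tables, and they were found by their listed symbols: 19 enzymes of cholesterol synthesis, 5 genes of the sterol regulatory element binding proteins (SREBPs) and their control, 2 sterol carriers (Stard4 and Npc1) and 6 genes of the liver X receptors (LXRs), cholesterol efflux and oxysterol synthesis. Expression of 30 of them could be tested, and Nr1h3 and Ch25h were removed by the filter on low counts. RNA came from mouse fetal liver progenitors immortalised with ER-HOXB8, an estrogen-dependent form of a homeobox protein that keeps progenitors dividing. The mutant line hi-77-/- has the genotype Gata2 -77-/-, which lacks an enhancer upstream of the Gata2 gene, and the wild-type line hi-77+/+ has the genotype Gata2 -77+/+. Cells of each line were exposed for 4 h to both agonists together, to Pam3CSK4 alone (100 ng/ml), to interferon gamma alone (IFNg, 1 ng/ml) or to vehicle, with 4 libraries in each of the 8 groups. Pam3CSK4, a lipopeptide made to resemble bacterial ones, is sensed by TLR2 together with TLR1. All cultures held 10% fetal bovine serum, a source of lipoprotein cholesterol, and 1 µM estradiol. Each genotype was a single immortalised line, so genotype and line cannot be told apart. The labels give neither strain nor age. Nor do they say if replicate libraries were grown as separate cultures, and p-values here speak only for the spread among libraries, which may be technical.

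Animal cells adjust cholesterol by feedback. When sterols in the endoplasmic reticulum are low, the escort protein Scap carries SREBPs to the Golgi, where they are cut and released to switch on genes of synthesis and uptake. Insig proteins hold Scap back when sterols are high. LXRs act on the other side: oxysterols bind them, and they switch on exporters such as Abca1 and Abcg1 and the ubiquitin ligase Mylip, which removes lipoprotein receptors. In macrophages interferons and Toll-like receptor ligands are known to change these genes and to induce Ch25h, an enzyme that makes an oxysterol. Only RNA was measured here, not sterols, SREBP processing or efflux.

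The libraries held 44.18 to 71.42 M expected counts each. Gata2 stood at 7.52 ± 0.679 CPM (counts per M counts, after TMM scaling; SD, n = 4) in mutant vehicle libraries and 43.4 ± 8.27 CPM in wild-type vehicle libraries. The defining progenitor genes Kit, Cd34, Ptprc and Myb were expressed in every group. Summed markers of hepatocytes, the main sterol-producing cell of the liver, stayed under 1 CPM in every library. In bulk RNA, a change in the number of cells of a type and a change in RNA per cell cannot be told apart. Values below are CPM in the 4 libraries of a group, or mean ± SD with n = 4. Changes are log2 fold changes ± SE from 1 edgeR quasi-likelihood fit to all 32 libraries, with p adjusted over 14869 genes and called under 0.05.

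Promoters of 7 members are printed because the results below turn on these genes: 5 synthesis enzymes, of which Ebp moved least between the genotypes, the SREBP target Insig1, and Abca1 for the efflux side. Each is the sense strand before the annotated start of the gene, from RefSeq on build GRCm38.p6, and capitals mark the sterol regulatory element TCACCCCAC, the NF-Y box CCAAT and the Sp1 box GGGCGG on either strand.
Hmgcs1 (chr13:119690151-119690350, plus strand): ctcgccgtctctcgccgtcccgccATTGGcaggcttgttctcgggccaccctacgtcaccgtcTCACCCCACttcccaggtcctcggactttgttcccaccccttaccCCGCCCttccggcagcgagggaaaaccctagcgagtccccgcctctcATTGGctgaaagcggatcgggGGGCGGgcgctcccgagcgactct
Mvd (chr8:122443423-122443622, minus strand): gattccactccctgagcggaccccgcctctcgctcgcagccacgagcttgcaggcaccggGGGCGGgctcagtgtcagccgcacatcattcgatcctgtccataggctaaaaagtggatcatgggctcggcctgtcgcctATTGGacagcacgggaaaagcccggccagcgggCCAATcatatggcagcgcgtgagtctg
Hsd17b7 (chr1:169969242-169969401, minus strand): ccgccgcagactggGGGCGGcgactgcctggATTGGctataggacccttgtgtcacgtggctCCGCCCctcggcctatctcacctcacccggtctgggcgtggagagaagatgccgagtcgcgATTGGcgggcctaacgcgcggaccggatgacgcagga
Sc5d (chr9:42264301-42264500, minus strand): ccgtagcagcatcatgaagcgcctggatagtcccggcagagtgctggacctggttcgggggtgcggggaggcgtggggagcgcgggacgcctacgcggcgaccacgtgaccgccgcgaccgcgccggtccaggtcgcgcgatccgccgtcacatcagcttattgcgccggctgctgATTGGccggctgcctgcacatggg
Ebp (chrX:8193513-8193712, minus strand): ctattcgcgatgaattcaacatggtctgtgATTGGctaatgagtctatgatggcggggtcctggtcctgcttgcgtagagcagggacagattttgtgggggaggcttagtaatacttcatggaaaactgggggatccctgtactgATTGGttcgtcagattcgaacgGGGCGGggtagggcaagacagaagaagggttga
Insig1 (chr5:28071163-28071362, plus strand): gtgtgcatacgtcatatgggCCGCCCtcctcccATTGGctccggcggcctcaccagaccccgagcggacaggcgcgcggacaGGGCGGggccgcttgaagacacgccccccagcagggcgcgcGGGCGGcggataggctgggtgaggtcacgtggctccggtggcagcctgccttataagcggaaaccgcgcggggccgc
Abca1 (chr4:53159896-53160095, minus strand): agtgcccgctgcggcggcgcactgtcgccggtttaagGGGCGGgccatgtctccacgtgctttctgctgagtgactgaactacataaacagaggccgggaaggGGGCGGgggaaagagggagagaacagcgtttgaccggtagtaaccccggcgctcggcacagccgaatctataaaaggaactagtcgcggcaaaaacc

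Of the 32 members 26 had a RefSeq promoter of 300 bases (250 before the start and 50 after it), among them 16 of the 19 enzymes. These 16 genes have 19 promoters in the table. The NF-Y box stood in 15 of the 19 enzyme promoters and in 37.41% of all 32851 promoters. The Sp1 box stood in 16 of the 19 enzyme promoters and in 35.66% of all promoters. The element TCACCCCAC was found in the promoter of 1 enzyme gene, Hmgcs1, and in 0.55% of all promoters. Its core CACCCCAC, which lies within it, was found in Hmgcs1 and Acat2 and in 2.87% of all promoters. Sterol elements with other letters were not searched, so a promoter without these letters may still hold one. The LXR element, searched as a direct repeat of AGGTCA with a spacer of 4 bases, was in none of the 26 genes and in 0.02% of all promoters. Only 5 of the 32851 promoters hold this exact pattern, so a miss was nearly certain beforehand. LXR elements with other letters were not searched. The miss does not show that a promoter, that of Abca1 included, lacks such an element. The interferon element AAANNGAAA occurred in promoters of 2 members and in 10.55% of all promoters, and the gamma-activated site TTCNNNGAA in 1 member and in 8.30% of all promoters. A match is a description of letters and not evidence that a factor binds there.

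The first comparison asked how mutant cells differed from wild-type cells before any stimulus. Of the 30 members tested 5 passed as higher and 23 as lower in the mutant line given vehicle, while 24.4% of all genes tested were higher and 29.3% lower. The synthesis enzymes were lower along the whole pathway: 18 of 19 passed the test as lower and none as higher, with a median log2 fold change of -0.32, against -0.01 over all genes tested. The exporters Abca1 and Abcg1 moved the other way. The plot of members in unstimulated cells shows this separation. Markers of blood cell types also differed between the lines, and their part in the sterol genes was not tested. Summed over a list, the 8 erythroid markers were at 4.75 to 5.70 CPM in mutant vehicle libraries and 43.5 to 48.2 CPM in wild-type vehicle libraries. The 6 mast cell and basophil markers were at 111 to 121 CPM in mutant and 612.5 to 667.5 CPM in wild-type libraries. The 8 neutrophil markers were at 1922 to 2039 CPM in mutant and 2626 to 2777 CPM in wild-type libraries, and the 7 B lymphoid markers were at 274.5 to 284.5 CPM in mutant and 39.8 to 45.2 CPM in wild-type libraries, with no marker of these lists at 0 in every library.

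**Figure D1:**
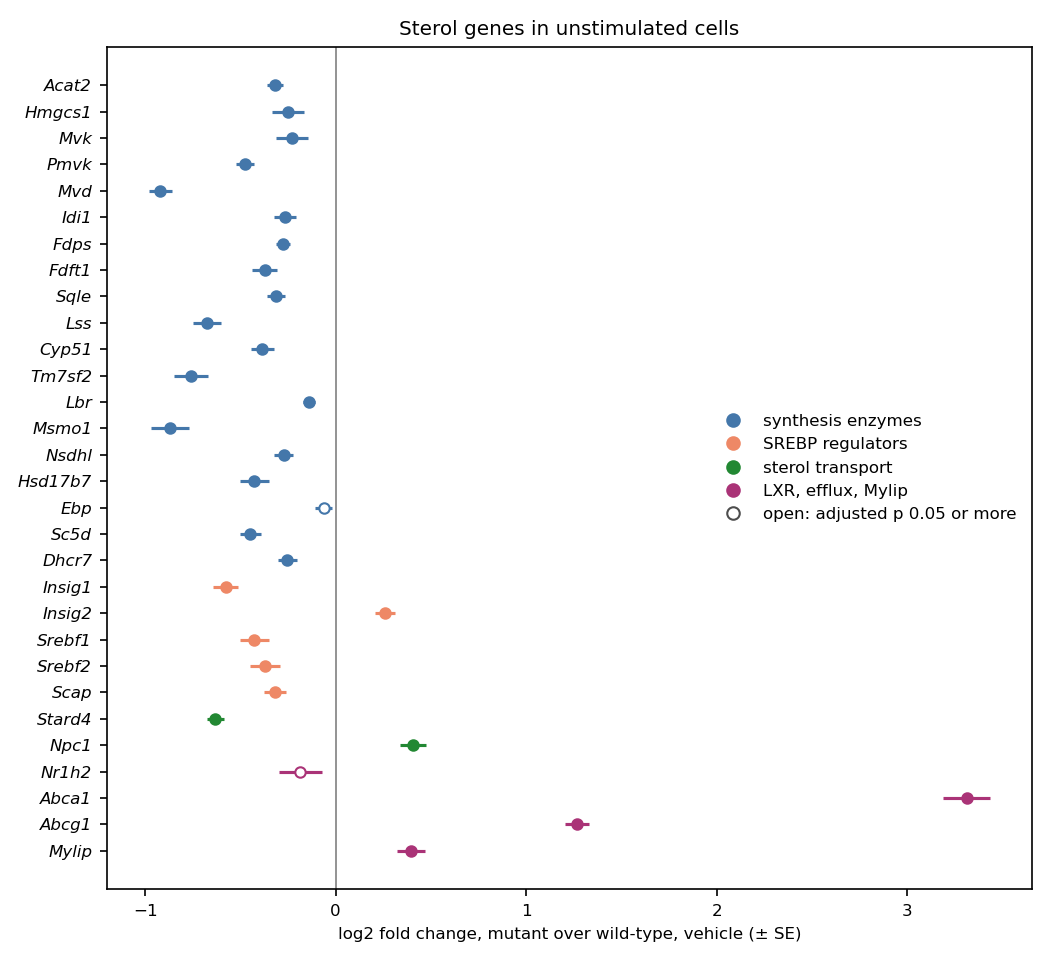
Log2 fold change of each tested member, mutant over wild-type vehicle libraries (x axis, with SE bars from the edgeR fit), ordered by role and coloured by group; open points did not pass the test. All 19 enzymes lie left of 0, between -0.92 for Mvd and -0.06 for Ebp, while Abca1, Abcg1, Mylip, Npc1 and Insig2 lie right of 0.

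The largest fall among the enzymes was in Mvd, which makes isopentenyl diphosphate at the end of the mevalonate steps. It stood at 18.2, 21.4, 20.4 and 18.5 CPM in mutant vehicle libraries, against 33.8, 36.6, 39.9 and 37.8 CPM in wild-type vehicle libraries. Every mutant library lay below every wild-type library (log2 fold change -0.92 ± 0.06, edgeR adjusted p = 1.5e-15), and the mutant level was 52.9% of the wild-type level. Msmo1, an oxidase that takes part in the removal of methyl groups from lanosterol products, had 105, 114, 114 and 97.2 CPM in mutant cells and 205, 207, 178 and 196 CPM in wild-type cells. These groups too did not overlap (log2 fold change -0.87 ± 0.10, edgeR adjusted p = 3.1e-08). The sterol reductase gene Tm7sf2 was low in both lines, at 3.90, 4.87, 4.34 and 4.05 CPM in mutant cells against 8.29, 6.53, 7.24 and 6.89 CPM in wild-type cells, again with no overlap (log2 fold change -0.76 ± 0.09, edgeR adjusted p = 4.5e-09). Lss, the cyclase that closes the sterol rings, had 48.5, 51.5, 51.3 and 49.01 CPM in mutant cells and 72.7, 88.3, 84.7 and 73.6 CPM in wild-type cells, without overlap (log2 fold change -0.67 ± 0.07, edgeR adjusted p = 2.6e-09).

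The other enzymes differed less. In the early, mevalonate part of the pathway the thiolase gene Acat2 had a log2 fold change of -0.32 ± 0.04, the synthase gene Hmgcs1 -0.25 ± 0.08, and the kinase genes Mvk and Pmvk -0.23 ± 0.08 and -0.48 ± 0.05. For the isoprenoid steps it was -0.27 ± 0.06 for the isomerase gene Idi1 and -0.28 ± 0.04 for the farnesyl diphosphate synthase gene Fdps. At the entry into sterols it was -0.37 ± 0.06 for squalene synthase (Fdft1) and -0.31 ± 0.05 for squalene epoxidase (Sqle). Among the later steps the demethylase gene Cyp51 had -0.39 ± 0.06, the dehydrogenase gene Nsdhl -0.27 ± 0.05, the reductase gene Hsd17b7 -0.43 ± 0.07, the desaturase gene Sc5d -0.45 ± 0.06 and the last reductase of the list, Dhcr7, -0.25 ± 0.05. All of these passed the test as lower in mutant cells. Lbr, whose protein is both a sterol reductase and a lamin receptor of the nuclear envelope, had the smallest fall that passed (log2 fold change -0.14 ± 0.03, edgeR adjusted p = 0.0002). The isomerase gene Ebp did not pass, at 25.3 ± 0.609 CPM in mutant cells and 26.5 ± 1.88 CPM in wild-type cells (log2 fold change -0.06 ± 0.04, edgeR adjusted p = 0.249). Ebp and Nsdhl are on the X chromosome, and Xist, the RNA of the inactive X, was between 357 and 575 CPM in mutant libraries and at most 0.0801 CPM in wild-type libraries. The lines thus differed in Xist as well as in genotype, which holds for every comparison of the lines and not only for X-linked genes. The part of this difference in the values of any member was not tested.

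The regulators that link sterols to these enzymes were mostly lower as well. Insig1, a retention factor that is itself an SREBP target, had 56.7, 59.8, 61.9 and 53.5 CPM in mutant cells and 85.7, 92.8, 83.1 and 84.2 CPM in wild-type cells. The groups did not overlap (log2 fold change -0.58 ± 0.07, edgeR adjusted p = 6.1e-09). The genes of the transcription factors, Srebf1 and Srebf2, were lower by log2 fold changes of -0.43 ± 0.08 and -0.37 ± 0.08, and that of their escort Scap by -0.32 ± 0.06. Wild-type vehicle library 3 was the highest of its group for these 3 genes (69.6, 98.0 and 58.8 CPM). Insig2, the related retention factor, was higher in mutant cells, with 10.3, 10.9, 10.8 and 9.84 CPM against 9.04, 9.02, 8.19 and 8.72 CPM in wild-type cells (log2 fold change 0.26 ± 0.05, edgeR adjusted p = 0.00011).

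The 2 sterol carriers moved in opposite directions. Stard4, a cytosolic sterol transfer protein, had 53.7, 52.4, 53.4 and 54.1 CPM in mutant cells and 81.3, 87.7, 81.8 and 79.7 CPM in wild-type cells, with no overlap (log2 fold change -0.63 ± 0.04, edgeR adjusted p = 9.8e-15). Npc1, which passes cholesterol out of lysosomes, had 15.6, 14.3, 16.5 and 17.5 CPM in mutant cells and 11.7, 13.1, 11.97 and 11.4 CPM in wild-type cells. All mutant values for Npc1 were above all wild-type values (log2 fold change 0.41 ± 0.07, edgeR adjusted p = 2.6e-06).

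With IFNg 13 of the 30 members rose and 4 fell in mutant cells, against 18.3% of all genes higher and 14.9% lower. In wild-type cells 11 rose and 7 fell, against 17.8% of all genes higher and 17.6% lower. Among the enzymes 11 rose and 1 fell in mutant cells (median 0.18), and 9 rose and 3 fell in wild-type cells (median 0.14). No member passed the test of the difference between the 2 genotypes in the IFNg response, where 1.65% of all genes were called; 6 members had an unadjusted p under 0.05, and DESeq2 also called 0. That test does not show that the lines responded alike: for Msmo1, for instance, the difference was 0.14 ± 0.14.

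Hsd17b7 had the largest IFNg response of the enzymes. Mutant cells had 24.2, 28.1, 27.6 and 29.9 CPM with IFNg and 16.00, 18.1, 16.2 and 14.6 CPM with vehicle. Wild-type cells had 32.05, 38.03, 35.8 and 36.1 CPM with IFNg and 20.1, 23.3, 22.5 and 20.97 CPM with vehicle. In each line all IFNg libraries lay above all vehicle libraries, and the increases were close in size, 1.70-fold in mutant cells (log2 fold change 0.76 ± 0.07, edgeR adjusted p = 6.2e-10) and 1.63-fold in wild-type cells (log2 fold change 0.71 ± 0.07, edgeR adjusted p = 2.6e-09). Insig1 followed, with 77.7, 80.3, 84.9 and 80.99 CPM in mutant IFNg libraries and 102, 129, 119.6 and 112 CPM in wild-type IFNg libraries, above the vehicle values given before (log2 fold change 0.48 ± 0.07, edgeR adjusted p = 5.5e-07 in mutant cells; log2 fold change 0.42 ± 0.07, edgeR adjusted p = 5.5e-06 in wild-type cells).

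The remaining enzyme responses to IFNg were small. Cyp51, Fdps, Sqle, Lss, Ebp, Sc5d and Hmgcs1 passed as higher in each line, with log2 fold changes between 0.14 ± 0.04 (Fdps, wild-type) and 0.33 ± 0.06 (Cyp51, mutant). Pmvk (0.22 ± 0.05), Idi1 (0.21 ± 0.06) and Msmo1 (0.27 ± 0.10) passed as higher in mutant cells, and Nsdhl (0.15 ± 0.05) in wild-type cells. Tm7sf2 fell in each line (-0.24 ± 0.09 in mutant cells and -0.24 ± 0.09 in wild-type cells). Mvk (-0.37 ± 0.08) and Mvd (-0.15 ± 0.06) fell in wild-type cells, where Mvk had 13.3 to 15.5 CPM with IFNg and 15.8 to 20.8 CPM with vehicle. The carrier gene Stard4 rose by similar amounts in the 2 lines, 0.20 ± 0.04 in mutant and 0.20 ± 0.04 in wild-type cells. Srebf1 fell in wild-type cells (log2 fold change -0.30 ± 0.08, edgeR adjusted p = 0.00333).

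The share of structural RNA (mitochondrial transcripts, microRNAs and small structural RNAs) moved with IFNg in the wild-type line, at 13.3 to 17.8% of counts with IFNg and 19.4 to 28.8% with vehicle. It was 15.4 to 24.4% with IFNg and 23.5 to 27.9% with vehicle in mutant cells. The wild-type ranges did not overlap, so share and treatment can hardly be told apart in that line, and lost calls do not separate them. With this share as a covariate 17 members were called in mutant cells, and 9 instead of 18 in wild-type cells. Genes called in all were 4545 instead of 4939 in mutant cells and 2794 instead of 5265 in wild-type cells. The median over the enzymes was then 0.16 in mutant cells and 0.11 in wild-type cells. In wild-type cells 4 enzymes instead of 9 were called higher, and the calls of Hmgcs1, Fdps, Sqle, Lss, Ebp and Nsdhl were lost. The falls of Tm7sf2 were not called in either line, at -0.13 in mutant and -0.05 in wild-type cells, nor were those of Mvk (-0.22) and Mvd (-0.12) in wild-type cells. Markers of blood cells also moved with IFNg, and their part was not tested. Of 8 erythroid markers 2 were lower in mutant cells and 6 in wild-type cells, with sums of 3.81 to 5.71 CPM with IFNg and 4.75 to 5.70 CPM with vehicle in mutant cells, and 29.4 to 35.4 CPM with IFNg and 43.5 to 48.2 CPM with vehicle in wild-type cells. Of 8 neutrophil markers 2 were lower in mutant and 4 in wild-type cells, and of 7 B lymphoid markers 4 were lower in mutant and 2 in wild-type cells.

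The plot of responses sets the 6 treatment comparisons side by side with the differences between the genotypes.

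**Figure D2:**
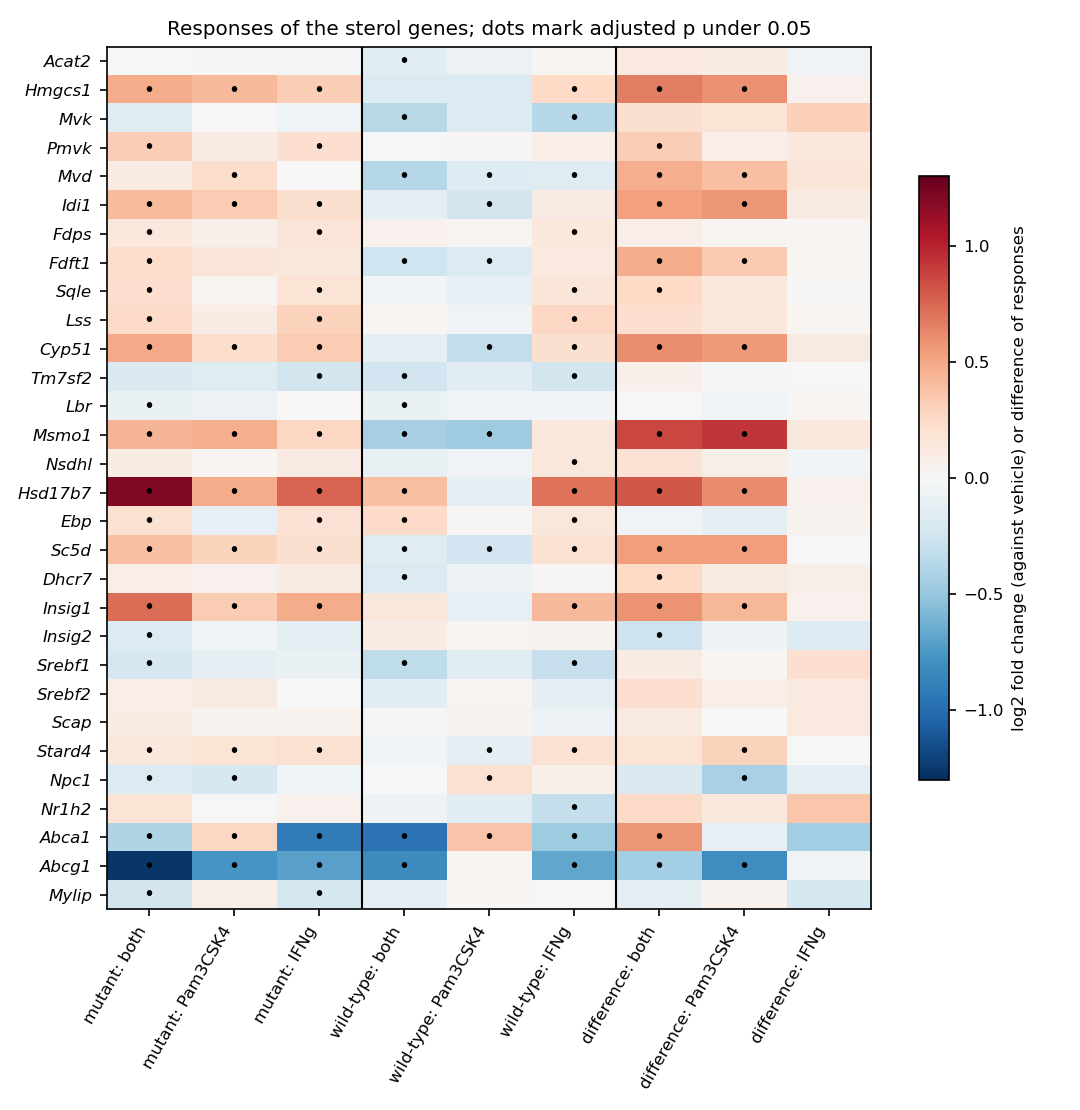
Log2 fold change against vehicle in mutant cells (left block) and wild-type cells (middle block), and the difference of the responses, mutant minus wild-type (right block), for the 30 tested members in rows; dots mark adjusted p under 0.05 in the edgeR fit. With Pam3CSK4 the enzymes Msmo1, Idi1, Cyp51 and Sc5d are red in mutant cells and blue in wild-type cells, while with IFNg no member has a dot in the difference.

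Pam3CSK4 split the lines. In mutant cells 10 of 30 members rose and 2 fell, against 11.5% of all genes higher and 12.8% lower. In wild-type cells 2 rose and 7 fell, against 10.4% of all genes higher and 11.7% lower. Among the 19 enzymes 7 rose and 0 fell in mutant cells (median 0.10), while 0 rose and 6 fell in wild-type cells (median -0.13). The difference of the responses, mutant minus wild-type, passed the test upward for 10 members and downward for 2, against 14.3% and 12.3% of all genes; 8 of the 10 were enzymes, and no enzyme had a downward difference.

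Msmo1 carried the largest difference. It had 123, 162, 157 and 154 CPM in mutant cells with Pam3CSK4, against 105, 114, 114 and 97.2 CPM with vehicle, so all treated libraries were higher (log2 fold change 0.47 ± 0.10, edgeR adjusted p = 0.0008). In wild-type cells it had 131, 153, 148 and 138 CPM with Pam3CSK4, against 205, 207, 178 and 196 CPM with vehicle, and all treated libraries were lower (log2 fold change -0.46 ± 0.10, edgeR adjusted p = 0.00177). The difference of the 2 responses was 0.93 ± 0.14 (2.9e-05 as edgeR adjusted p). With Pam3CSK4 Msmo1 stood at 149 ± 17.7 CPM in mutant cells and 142 ± 10.2 CPM in wild-type cells.

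Idi1, Cyp51 and Sc5d also passed in opposite directions in the 2 lines. Idi1 had 219, 253, 257 and 259.8 CPM in mutant cells with Pam3CSK4, above the 199.5, 201, 198 and 186 CPM with vehicle (log2 fold change 0.33 ± 0.06, edgeR adjusted p = 5.1e-05). In wild-type cells it had 198, 207, 203 and 194 CPM with Pam3CSK4, below the 258, 239.9, 209.5 and 236 CPM with vehicle (log2 fold change -0.23 ± 0.06, edgeR adjusted p = 0.00442). Neither pair of groups overlapped, and the difference was 0.57 ± 0.08 (edgeR adjusted p = 8.5e-06). Cyp51 had 133, 157, 149.8 and 149 CPM in mutant cells with Pam3CSK4 and 119.9, 130.4, 136 and 116 CPM with vehicle, where 1 treated library fell within the vehicle range (log2 fold change 0.23 ± 0.06, edgeR adjusted p = 0.00372). It had 125, 137, 136 and 128 CPM in wild-type cells with Pam3CSK4 and 165, 172, 154 and 164 CPM with vehicle, with no overlap (log2 fold change -0.32 ± 0.06, edgeR adjusted p = 0.00044). The difference for Cyp51 was 0.55 ± 0.08 (edgeR adjusted p = 1.8e-05). Sc5d had 44.6, 50.9, 49.9 and 52.8 CPM in mutant cells with Pam3CSK4 and 40.98, 39.2, 41.1 and 40.3 CPM with vehicle, and 43.98, 48.5, 47.8 and 44.8 CPM in wild-type cells with Pam3CSK4 and 55.6, 58.5, 51.96 and 54.4 CPM with vehicle. Its groups overlapped in neither line, and its difference was 0.55 ± 0.08 (edgeR adjusted p = 4.8e-06).

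Hmgcs1, Hsd17b7 and Insig1 passed the test of the difference with a rise in mutant cells and no call in wild-type cells. Hmgcs1, the gene whose promoter above holds the full sterol element, had 262, 337, 306 and 300.0 CPM in mutant cells with Pam3CSK4 and 219, 227, 242 and 214 CPM with vehicle (log2 fold change 0.42 ± 0.08, edgeR adjusted p = 0.00039). With Pam3CSK4 wild-type cells had 219.8, 248, 249.9 and 234 CPM with Pam3CSK4 and 262, 295, 269 and 247 CPM with vehicle, with 2 treated values above the lowest vehicle value (log2 fold change -0.17 ± 0.08, edgeR adjusted p = 0.145). The difference was 0.59 ± 0.12 for Hmgcs1, 0.62 ± 0.11 for Hsd17b7 and 0.43 ± 0.09 for Insig1 (edgeR adjusted p = 0.00059, 7.1e-05 and 0.00083). Mvd rose in mutant cells (0.23 ± 0.06) and fell in wild-type cells (-0.17 ± 0.06), with a difference of 0.39 ± 0.08. Fdft1 fell in wild-type cells (log2 fold change -0.18 ± 0.06, edgeR adjusted p = 0.0424), did not pass in mutant cells (log2 fold change 0.16 ± 0.06, edgeR adjusted p = 0.066), and had a difference of 0.34 ± 0.09 (edgeR adjusted p = 0.00538). For the other 11 enzymes the difference did not pass.

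Both sterol carriers passed with Pam3CSK4 in opposite directions in the 2 lines, of which the wild-type direction of Npc1 was lost with the share of structural RNA as covariate (-0.02, edgeR adjusted p = 0.974). The difference for Npc1 was then -0.16 (edgeR adjusted p = 0.298), and Stard4 in wild-type cells was at -0.13 (edgeR adjusted p = 0.471). Stard4 had 55.3, 64.3, 61.3 and 59.9 CPM in mutant cells with Pam3CSK4 and 53.7, 52.4, 53.4 and 54.1 CPM with vehicle (log2 fold change 0.17 ± 0.04, edgeR adjusted p = 0.00303). Wild-type cells had 72.7, 79.2, 76.8 and 74.2 CPM with Pam3CSK4 and 81.3, 87.7, 81.8 and 79.7 CPM with vehicle (log2 fold change -0.13 ± 0.04, edgeR adjusted p = 0.0337). Npc1 went the other way: it had 15.1, 13.8, 12.8 and 13.1 CPM in mutant cells with Pam3CSK4 and 15.6, 14.3, 16.5 and 17.5 CPM with vehicle (log2 fold change -0.22 ± 0.07, edgeR adjusted p = 0.0112), and 14.3, 13.4, 13.7 and 13.97 CPM in wild-type cells with Pam3CSK4 and 11.7, 13.1, 11.97 and 11.4 CPM with vehicle (log2 fold change 0.20 ± 0.07, edgeR adjusted p = 0.0265). The differences were 0.30 ± 0.06 for Stard4 and -0.42 ± 0.09 for Npc1 (edgeR adjusted p = 0.00051 and 0.00101).

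The number of calls in wild-type cells changed when the make-up of the libraries was put into the fit. Structural RNA took 13.6 to 16.9% of counts in wild-type Pam3CSK4 libraries and 19.4 to 28.8% in wild-type vehicle libraries. The wild-type ranges did not overlap, so share and treatment can hardly be told apart in that line. A covariate so tied to treatment weakens the test, and lost calls do not tell the 2 apart. In mutant cells the ranges overlapped, 25.2 to 30.3% with Pam3CSK4 and 23.5 to 27.9% with vehicle. With that share as a covariate, 0 members rather than 9 were called in wild-type cells, and genes called in all were 176 rather than 3277. The median over the enzymes was -0.135 in wild-type cells with the covariate and -0.131 without it. Of the falls that lost their call, Msmo1 was then at -0.30, Cyp51 at -0.23, Sc5d at -0.22, Fdft1 at -0.21, Mvd at -0.13 and Idi1 at -0.09. The difference between the lines still called 10 members upward, 8 of them enzymes, and 1 downward instead of 2. Genes called in all for that difference were 1212 rather than 3956. Without wild-type vehicle libraries 1 and 4 the count in wild-type cells was 3 and the enzyme median -0.16, and without wild-type Pam3CSK4 library 1 or 4 it was 4. No more was tested of the part of this share in the wild-type falls. Neutrophil markers were lower for 7 of 8 in wild-type cells with Pam3CSK4 (median -0.48) and for 1 of 8 in mutant cells. Their sum was 1702 to 1828 CPM with Pam3CSK4 and 1922 to 2039 CPM with vehicle in mutant cells, and 2652 to 2775 CPM with Pam3CSK4 and 2626 to 2777 CPM with vehicle in wild-type cells. Of 8 erythroid markers 0 were lower in mutant cells and 4 in wild-type cells, where the sum was 34.5 to 38.3 CPM with Pam3CSK4 and 43.5 to 48.2 CPM with vehicle. Their part in the sterol genes was not tested.

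**Figure D3:**
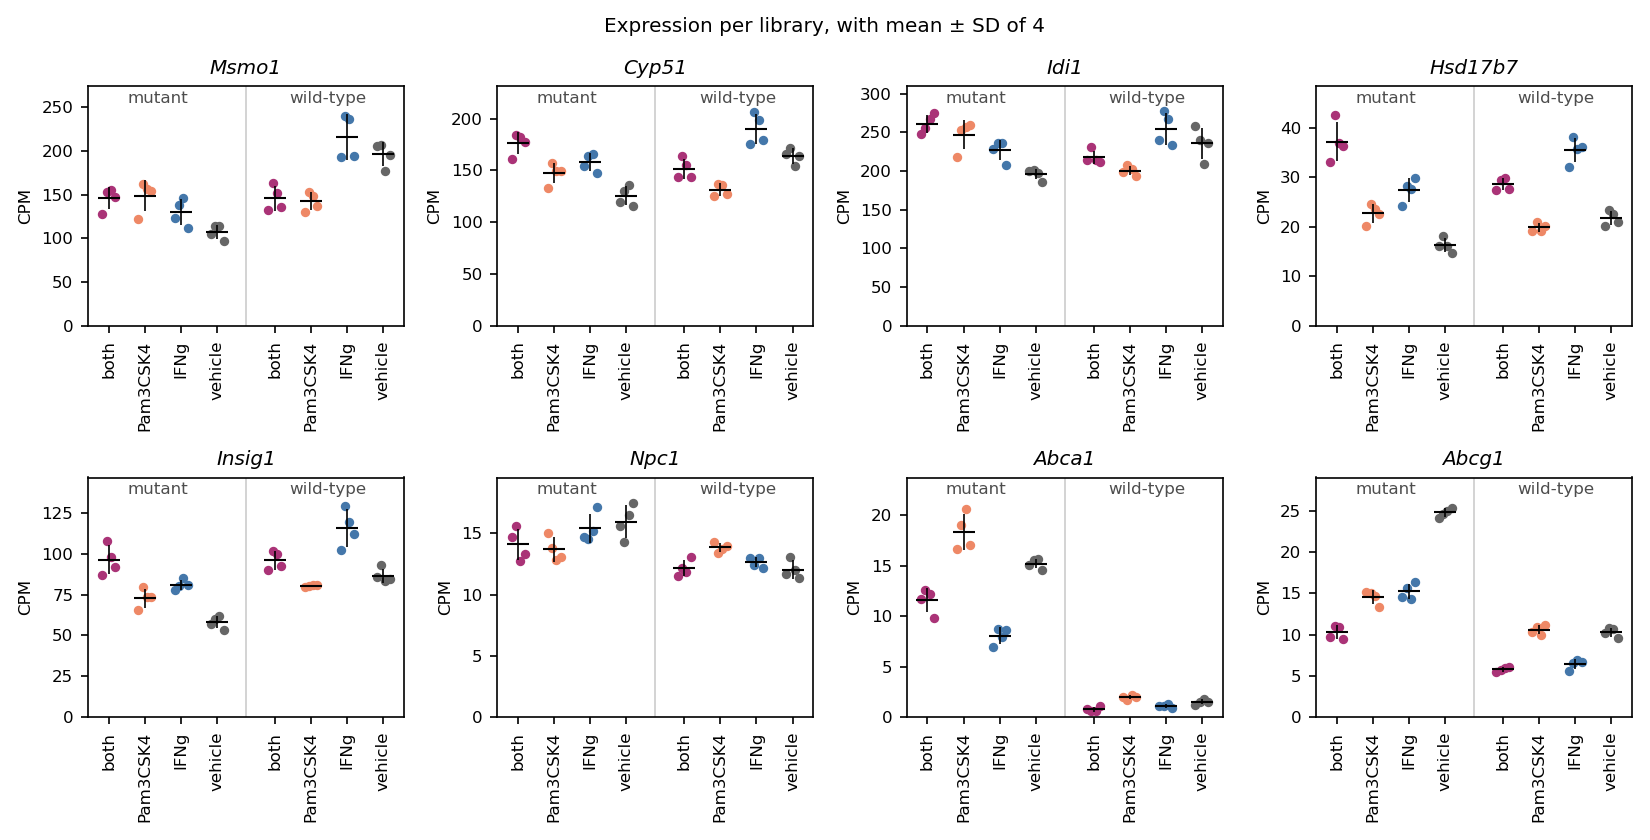
CPM of 8 members in each of the 32 libraries (points; y axis from 0), with mean and SD of the 4 libraries of a group (bars); mutant groups are on the left of each panel and wild-type groups on the right. Msmo1 with Pam3CSK4 lies above vehicle in mutant cells and below vehicle in wild-type cells, and Abca1 is at 6.99 CPM or more in every mutant library and at 2.20 CPM or less in every wild-type library.

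With both agonists together the lines differed as well. In mutant cells 14 of 30 members rose and 7 fell, against 23.7% of all genes higher and 20.1% lower, and in wild-type cells 2 rose and 12 fell, against 21.2% higher and 22.4% lower. Of the enzymes 12 rose and 1 fell in mutant cells (median 0.22), while 2 rose and 9 fell in wild-type cells (median -0.12). The difference of the responses was upward for 13 members and downward for 2, against 8.80% and 6.99% of all genes, and 11 of the 13 were enzymes. Structural RNA was 18.8 to 27.8% of counts in mutant and 12.8 to 14.2% in wild-type libraries given both agonists. The wild-type range lay below that of wild-type vehicle libraries, 19.4 to 28.8%, so share and treatment can hardly be told apart in that line. With this share as a covariate 21 members were called in mutant cells, 11 in wild-type cells and 17 instead of 15 in the difference. Genes called in all were 6870 instead of 6513 in mutant cells and 3640 instead of 6491 in wild-type cells. In the difference they were 1380 instead of 2347. In wild-type cells 5 enzymes instead of 9 were then called lower, with an enzyme median of -0.12. The falls of Msmo1 (-0.24), Mvk (-0.17), Sc5d (-0.12), Lbr (-0.05) and Tm7sf2 (-0.00) lost their call. Erythroid markers were lower for 2 of 8 in mutant and 7 of 8 in wild-type cells, and neutrophil markers for 1 of 8 in mutant and 5 of 8 in wild-type cells, and their part was not tested.

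Hsd17b7 rose most. In mutant cells it had 32.98, 42.6, 36.9 and 36.2 CPM with both agonists and 16.00, 18.1, 16.2 and 14.6 CPM with vehicle, a 2.30-fold increase with no overlap (log2 fold change 1.20 ± 0.07, edgeR adjusted p = 4.1e-15). In wild-type cells it had 27.4, 29.4, 29.9 and 27.6 CPM with both agonists and 20.1, 23.3, 22.5 and 20.97 CPM with vehicle, also without overlap (log2 fold change 0.40 ± 0.07, edgeR adjusted p = 5e-05). The difference was 0.81 ± 0.10 (edgeR adjusted p = 1.2e-06). Insig1 had 86.97, 108, 98.2 and 91.8 CPM in mutant cells with both agonists (log2 fold change 0.73 ± 0.07, edgeR adjusted p = 6.7e-11) and 89.7, 102, 100.0 and 92.6 CPM in wild-type cells with both agonists (log2 fold change 0.15 ± 0.07, edgeR adjusted p = 0.059), and these ranges overlapped.

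Msmo1 (0.87 ± 0.14), Hmgcs1 (0.67 ± 0.12), Cyp51 (0.60 ± 0.08), Sc5d (0.54 ± 0.08), Idi1 (0.53 ± 0.08), Mvd (0.48 ± 0.08), Fdft1 (0.48 ± 0.09), Pmvk (0.32 ± 0.07), Sqle (0.26 ± 0.07) and Dhcr7 (0.26 ± 0.07) were the other enzymes with a difference that passed. In wild-type cells Msmo1 again fell, to 133, 163, 152 and 136 CPM, against 205, 207, 178 and 196 CPM with vehicle (log2 fold change -0.43 ± 0.10, edgeR adjusted p = 0.00091). In mutant cells it rose to 128, 154, 156 and 147 CPM, against 105, 114, 114 and 97.2 CPM with vehicle (log2 fold change 0.44 ± 0.10, edgeR adjusted p = 0.00062). Ebp differed from most enzymes in rising in each line, by 0.20 ± 0.04 in mutant cells and 0.25 ± 0.04 in wild-type cells. Insig2 fell in mutant cells (log2 fold change -0.18 ± 0.05, edgeR adjusted p = 0.0071) and was 0.10 ± 0.05 in wild-type cells, with a difference of -0.27 ± 0.08 (edgeR adjusted p = 0.0127). Srebf1 fell in each line (-0.22 ± 0.08 in mutant and -0.33 ± 0.08 in wild-type cells), while Srebf2 and Scap passed in no treatment comparison.

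It was also tested in each line whether the log2 response to both agonists equalled the responses to each alone, added together. In mutant cells 1 member departed from the sum, Stard4 (log2 fold change -0.23 ± 0.06, edgeR adjusted p = 0.0371), against 1.86% of all genes. In wild-type cells 1 member departed, Abca1 (log2 fold change -0.87 ± 0.21, edgeR adjusted p = 0.0443), against 0.592% of all genes. No synthesis enzyme passed this test in either line. At an unadjusted p under 0.05 there were 4 members in mutant and 8 in wild-type cells, and DESeq2 called 1 in each. With 1 library left out at a time the count was 0 or 1 in each line, so that each call was lost when certain single libraries were left out.

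**Figure D4:**
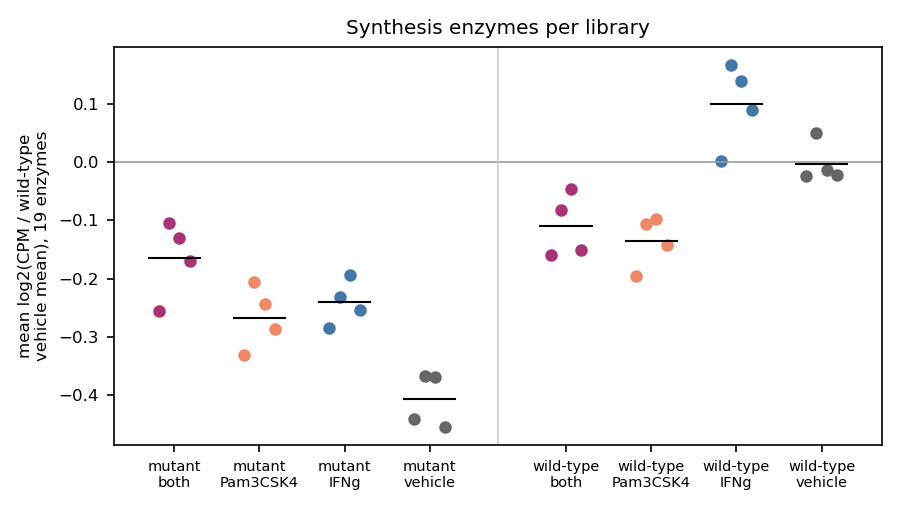
Mean over the 19 synthesis enzymes of log2(CPM divided by the wild-type vehicle mean) in each library (points) and the mean of the 4 libraries (lines), mutant groups on the left. Mutant vehicle libraries lie lowest, between -0.454 and -0.366. Wild-type IFNg libraries, between 0.002 and 0.166, overlap wild-type vehicle libraries, between -0.024 and 0.049.

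The efflux genes formed a separate pattern. Abca1, the exporter that loads cholesterol onto lipid-poor apolipoproteins, had 15.1, 15.5, 15.7 and 14.6 CPM in mutant vehicle libraries, against 1.22, 1.52, 1.83 and 1.52 CPM in wild-type vehicle libraries. It was 9.92-fold higher in mutant cells (log2 fold change 3.31 ± 0.12, edgeR adjusted p = 1.6e-22). Abcg1, which exports cholesterol to lipoprotein particles, had 24.2, 24.7, 25.03 and 25.4 CPM in mutant cells and 10.2, 10.8, 10.7 and 9.55 CPM in wild-type cells, a 2.41-fold difference without overlap (log2 fold change 1.27 ± 0.06, edgeR adjusted p = 4.5e-19). Mylip, another LXR target in many tissues, was higher too, with 8.37, 8.07, 8.77 and 7.997 CPM in mutant cells and 6.84, 5.99, 6.47 and 5.96 CPM in wild-type cells (log2 fold change 0.40 ± 0.07, edgeR adjusted p = 1.6e-05). Nr1h2, the LXR gene expressed in these cells, did not pass, at 21.7 ± 1.51 CPM in mutant cells and 24.6 ± 4.05 CPM in wild-type cells (log2 fold change -0.18 ± 0.11, edgeR adjusted p = 0.167). The other LXR gene, Nr1h3, had 0 to 7 counts in every library of either line. Summed CPM of the 7 monocyte and macrophage markers was 695 to 780 in mutant vehicle libraries and 232 to 298 in wild-type vehicle libraries, with no marker at 0. Of the 6 markers tested 4 passed as higher and 2 as lower in mutant cells. The part of these markers in the higher efflux genes was not tested.

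IFNg lowered both exporters in both lines. Abca1 had 6.99, 8.74, 7.92 and 8.69 CPM in mutant cells with IFNg, 53.1% of the vehicle level and without overlap (log2 fold change -0.91 ± 0.10, edgeR adjusted p = 7.7e-09). In wild-type cells it had 1.13, 1.07, 1.32 and 0.929 CPM with IFNg, where the highest treated library lay within the vehicle range (log2 fold change -0.46 ± 0.15, edgeR adjusted p = 0.013). Abcg1 had 14.6, 15.7, 14.4 and 16.4 CPM in mutant cells with IFNg (log2 fold change -0.70 ± 0.06, edgeR adjusted p = 8.8e-12) and 5.63, 6.54, 6.95 and 6.69 CPM in wild-type cells with IFNg (log2 fold change -0.67 ± 0.07, edgeR adjusted p = 2.8e-10). All treated Abcg1 libraries were below all vehicle libraries in each line. Mylip fell with IFNg in mutant cells (log2 fold change -0.23 ± 0.07, edgeR adjusted p = 0.0125) and not in wild-type cells (-0.00 ± 0.07), but that difference did not pass (edgeR adjusted p = 0.306). Nr1h2 fell in wild-type cells (log2 fold change -0.31 ± 0.11, edgeR adjusted p = 0.0325). The groups overlapped, with up to 22.6 CPM with IFNg and as little as 21.03 CPM with vehicle. With the share of structural RNA as covariate this call was lost (-0.16, edgeR adjusted p = 0.489).

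Pam3CSK4 separated the exporters from each other. Abca1 rose in each line, to 16.7, 18.99, 20.6 and 17.1 CPM in mutant cells (log2 fold change 0.27 ± 0.10, edgeR adjusted p = 0.0475) and 1.96, 1.75, 2.20 and 2.02 CPM in wild-type cells (log2 fold change 0.37 ± 0.14, edgeR adjusted p = 0.0477). These calls were close to the threshold, and the wild-type call was lost with the share of structural RNA as covariate (0.28, edgeR adjusted p = 0.633). Abcg1 fell in mutant cells with Pam3CSK4, to 15.2, 15.1, 14.7 and 13.3 CPM (log2 fold change -0.77 ± 0.06, edgeR adjusted p = 2.2e-12), and was at 10.3, 10.9, 10.02 and 11.2 CPM in wild-type cells, overlapping the vehicle values (log2 fold change 0.04 ± 0.06, edgeR adjusted p = 0.707). The difference for Abcg1 was -0.80 ± 0.09 (edgeR adjusted p = 2.4e-08), and Abcg1 and Npc1 were the only members with a downward difference; with the share of structural RNA as covariate Abcg1 alone was called. The monocyte and macrophage markers summed to 614 to 710 CPM in mutant Pam3CSK4 libraries, which overlaps the vehicle range. Of the 6 tested 1 was higher and 2 lower with Pam3CSK4 in mutant cells.

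With both agonists Abcg1 was lowest. It had 9.66, 11.1, 10.96 and 9.53 CPM in mutant cells, 41.5% of the vehicle level (log2 fold change -1.27 ± 0.06, edgeR adjusted p = 8e-19), and 5.49, 5.67, 5.95 and 6.15 CPM in wild-type cells, 56.4% of the vehicle level (log2 fold change -0.83 ± 0.07, edgeR adjusted p = 1.3e-12). The mutant level with both agonists was then near the wild-type vehicle level. Abca1 fell to 11.7, 12.6, 12.2 and 9.85 CPM in mutant cells (log2 fold change -0.39 ± 0.10, edgeR adjusted p = 0.00183) and to 0.791, 0.634, 0.625 and 1.14 CPM in wild-type cells (log2 fold change -0.96 ± 0.16, edgeR adjusted p = 5.2e-06). The difference was downward for Abcg1 (-0.44 ± 0.09) and upward for Abca1 (log2 fold change 0.57 ± 0.19, edgeR adjusted p = 0.0329).

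Ch25h, the oxysterol-producing hydroxylase, was counted in few reads, most of them in mutant cells given Pam3CSK4. Its counts in mutant libraries were 28, 10, 16 and 19 with both agonists, 8, 8, 8 and 3 with Pam3CSK4, 3, 1, 0 and 0 with IFNg and 0, 2, 0 and 0 with vehicle. Wild-type libraries had at most 2 counts, and none with vehicle. Summed over libraries, mutant cells with both agonists had 73 counts and mutant vehicle cells 2, a ratio of 36.7 per library size with a 95% counting interval of 9.81 to 309. The ratio was 14.7 (3.70 to 128) for mutant cells with Pam3CSK4 against vehicle. With both agonists mutant cells exceeded wild-type cells by a ratio of 25.1 (8.27 to 125). The 4 against 4 libraries did not overlap in these 3 comparisons, the exact two-sided permutation p was 0.0286 for each, the smallest these groups can give, and it was 0.0643 after Benjamini-Hochberg adjustment over 9 comparisons. Intervals cover counting error only. The level of Ch25h stayed under 0.5 CPM in every library, and the annotated exon of Ch25h shares 11.5% of its bases with an antisense gene. When no filter on low counts was applied, edgeR gave an adjusted p = 2.82e-08 for both agonists and 0.00119 for Pam3CSK4 in mutant cells. The same fit did not call the difference of the responses between the lines, with both agonists (2.11 ± 5.95, edgeR adjusted p = 1) or with Pam3CSK4 (0.76 ± 1.36, edgeR adjusted p = 1).

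Per kilobase of effective transcript length, which allows levels to be compared between genes, Fdps was the most abundant enzyme in vehicle libraries, at 189 ± 8.45 CPM per kb in mutant cells and 229.5 ± 11.8 CPM per kb in wild-type cells. Lbr (121 ± 1.74 in mutant and 133 ± 6.04 in wild-type cells) came next. Hsd17b7, at 3.92 ± 0.425 CPM per kb in mutant cells and 5.18 ± 0.426 in wild-type cells, and Tm7sf2, at 4.03 ± 0.307 in mutant cells and 7.13 ± 0.929 in wild-type cells, were the lowest. Tm7sf2 and Lbr encode reductases of the same step, and Lbr was the higher in each line. On this scale Srebf2 stood at 12.3 ± 0.601 CPM per kb in mutant cells and 15.8 ± 3.05 in wild-type cells, and Srebf1 at 10.7 ± 1.03 in mutant cells and 14.4 ± 2.04 in wild-type cells, so that the SDs of the 2 genes overlapped in wild-type cells. Abca1 stood at 1.52 ± 0.0476 CPM per kb in mutant cells, still below Abcg1 at 4.51 ± 0.09997. Some counts rest on reads shared with other genes. Values lay more than 0.001 from a whole number in 100% of libraries for Idi1, 96.9% for Fdps and 68.8% for Acat2, and Fdps shares 26.7% of its annotated exon bases with Gm43738 on the same strand.

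Neighbouring pathways were described from lists of related genes. Fatty acid synthesis, which SREBPs also control, had 17 tested genes, of which 1 passed as higher and 15 as lower in mutant cells given vehicle (median log2 fold change -0.49), against 24.4% and 29.3% of all genes. Scd1, a fatty acid desaturase, had 0.674 ± 0.109 CPM in mutant cells and 8.75 ± 1.01 CPM in wild-type cells (log2 fold change -3.70 ± 0.13, edgeR adjusted p = 5.6e-23), and Acss2, which makes acetyl-CoA from acetate, had 7.21 ± 0.500 CPM in mutant cells and 22.4 ± 1.56 CPM in wild-type cells (-1.63 ± 0.06). Of 16 genes of SREBP processing and sterol sensing 2 were higher and 13 lower (median -0.18). Of 14 genes of sterol uptake, lysosomes and storage 4 were higher and 8 lower (median -0.16). Soat1, which esterifies cholesterol for storage, had 54.1 ± 2.81 CPM in mutant cells and 128 ± 5.34 CPM in wild-type cells (-1.24 ± 0.04). The isoprenoid branch, which uses the same early enzymes for other products, had 3 of 14 higher and 5 lower (median -0.02), near the shares over all genes. Other LXR targets had 1 of 9 higher and 7 lower (median -0.43), opposite to Abca1 and Abcg1. This list holds Scd1, Scd2 and Srebf1, which are also SREBP targets, and their part in the direction of the list was not tested.

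With IFNg fatty acid synthesis had 6 of 17 genes higher and 0 lower in mutant cells, and 4 higher and 2 lower in wild-type cells. Over all genes 18.3% were higher and 14.9% lower in mutant cells, and 17.8% and 17.6% in wild-type cells, so the wild-type counts were near the background. Elovl6, a fatty acid elongase, had 138 ± 8.09 CPM in mutant cells with IFNg and 74.5 ± 5.07 CPM with vehicle (log2 fold change 0.89 ± 0.05), and 178 ± 3.27 CPM in wild-type cells with IFNg and 109 ± 7.01 CPM with vehicle (0.71 ± 0.05). With Pam3CSK4 this list had 0 higher and 2 lower in mutant cells, and 3 higher and 2 lower in wild-type cells, against 11.5% and 12.8% of all genes in mutant cells and 10.4% and 11.7% in wild-type cells; the counts of lower genes were near the background. In the sterol sensing list Gramd1b, a carrier that moves plasma membrane cholesterol to the endoplasmic reticulum, had 35.2 ± 2.03 CPM in mutant cells with Pam3CSK4 and 14.1 ± 0.539 CPM with vehicle (1.32 ± 0.07), and 23.4 ± 0.393 CPM in wild-type cells with Pam3CSK4 and 14.7 ± 1.72 CPM with vehicle (0.66 ± 0.07). The difference was 0.65 ± 0.09 (edgeR adjusted p = 3.3e-06). Soat1 rose with Pam3CSK4 in wild-type cells (0.20 ± 0.04), and its response was lower in mutant cells, with a difference of -0.40 ± 0.06 (edgeR adjusted p = 8.5e-06). Osbpl5, an oxysterol-binding protein family member, had 13.3 ± 1.12 CPM in mutant cells with Pam3CSK4 and 21.5 ± 0.819 CPM with vehicle (-0.68 ± 0.05), with a difference of -0.52 ± 0.07 (edgeR adjusted p = 3.3e-06).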

How the data were processed

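RNA-seq of 2 genotypes under 4 treatments gave 8 groups of 4 libraries by the labels, each library with a gene table of its own. The authors deposited expected counts per gene, which the file headers name as RSEM output together with effective lengths. Per the submitters' processing notes the tools were STAR 2.5.2b and RSEM 1.3.0 with build mm10. The release of the annotation and the read filters are not given in the sources used. Per the labels' protocols, total RNA was depleted of ribosomal RNA and the libraries kept strand. Of 55487 gene identifiers 55394 matched GENCODE vM21, which gave symbols and coordinates.

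Expected counts were rounded to whole numbers. filterByExpr of edgeR 4.0.16 on the 8 groups kept 14869 genes and removed 40618. TMM scaling and a robust quasi-likelihood fit of all 32 libraries left 24 residual degrees of freedom, and the common biological coefficient of variation was 7.22%. The model gave 12 contrasts that were tested, each adjusted by Benjamini-Hochberg with 0.05 as threshold. The SE was worked back from the test, as the size of the log2 fold change divided by the square root of its F statistic. Such an SE is rough where a group has no counts, as for Ch25h. CPM per kb divides the CPM of each library by the effective length in the deposited table of that library, before means and SDs are taken. Depth was 44.18 to 71.42 M counts per library. Intervals on counts (95%, exact binomial) cover counting error only. Ch25h was compared by exact permutation of libraries.

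All 32 members are described. From each neighbouring list and contrast the text takes at most 2 rises and 2 falls of greatest size among called genes with 5 CPM or more in some group. The members and lists were chosen with earlier results of these data known. Promoters came from a RefSeq table on GRCm38.p6, and printed stretches avoid annotated exons. The alternatives were RLE size factors, DESeq2 1.42.0, no filter on low counts, structural RNA genes left out (5565 genes), the share of structural RNA as a covariate, the replicate number as a block, a fit of only the libraries compared, wild-type vehicle libraries 1 and 4 left out, and each library left out in turn. The replicate numbers were not taken as pairs. Over all genes 5 of 112 same-numbered pairs of libraries had deviations correlated above 0.1 (median r = 0.009). A correlation over all genes cannot show whether the sterol genes share an effect of replicate number. After the main fit, counts were simulated with its estimates of spread and known changes in mutant Pam3CSK4 libraries, 50 genes per size. The test against vehicle recovered 60% of 1.25-fold, 92% of 1.5-fold, 96% of 2-fold and 98% of 4-fold changes. Small changes can therefore be missed. Software was R 4.3.3 with limma 3.58.1 and data.table (1.17.8), and Python 3.11.15 with numpy 2.4.6, pandas 2.3.3, scipy 1.17.1 and matplotlib 3.10.9.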

Additional observations from a re-analysis of the deposited data

Results flagged for a closer look

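Responses that differed between the lines came first. In the test of the difference itself (mutant response minus wild-type response, log2 scale, edgeR adjusted p under 0.05), Pam3CSK4 gave positive values for Msmo1 (0.93), Hsd17b7 (0.62), Hmgcs1 (0.59), Idi1 (0.57), Cyp51 (0.55), Sc5d (0.55), Insig1 (0.43), Mvd (0.39), Fdft1 (0.34) and Stard4 (0.30). It gave negative values for Abcg1 (-0.80) and Npc1 (-0.42). With both agonists the difference was positive for Msmo1 (0.87), Hsd17b7 (0.81), Hmgcs1 (0.67), Cyp51 (0.60), Insig1 (0.58), Abca1 (0.57), Sc5d (0.54), Idi1 (0.53), Mvd (0.48), Fdft1 (0.48), Pmvk (0.32), Sqle (0.26) and Dhcr7 (0.26), and negative for Abcg1 (-0.44) and Insig2 (-0.27). The Pam3CSK4 and both-agonist differences share the same vehicle libraries.

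Single libraries stood apart from the other 3 of their group in 9 of the 240 combinations of member and group, by the gap to the nearest value relative to the range; chance alone gives about 1 in 20. In mutant cells with Pam3CSK4, Nsdhl was highest in library 2 (40.32 CPM). In mutant cells with IFNg, Acat2 was lowest and Scap highest in library 1 (110.5 and 46.14 CPM) and Mylip was lowest in library 3 (6.157 CPM). In wild-type cells with both agonists, Idi1 was highest in library 2 (230.6 CPM) and Tm7sf2 lowest in library 4 (5.469 CPM). Nr1h2 was highest in library 2 of wild-type cells with Pam3CSK4 (24.43 CPM). In wild-type vehicle libraries Fdft1 was highest in library 2 (68.77 CPM) and Scap highest in library 3 (58.8 CPM).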

How the results depend on the processing

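Counts of called members moved little under most alternatives. They moved by over 1.5 times in the wild-type responses and in the departures from additivity. With the share of structural RNA as covariate, wild-type calls were 9 with IFNg (18 without it) and 0 with Pam3CSK4 (9 without it). Genes called in all in wild-type cells were 2794 with IFNg (5265 without it) and 176 with Pam3CSK4 (3277 without it). The medians over the enzymes were 0.11 with IFNg (0.14 without it) and -0.135 with Pam3CSK4 (-0.131 without it). In wild-type cells the share of structural RNA did not overlap between vehicle and treated libraries, so lost calls do not tell share from treatment. Leaving out wild-type vehicle libraries 1 and 4 gave 3 calls for wild-type Pam3CSK4. Leaving out 1 library at a time gave 27 to 28 calls between the lines with vehicle. In mutant cells it gave 15 to 18 with IFNg, 11 to 14 with Pam3CSK4 and 19 to 22 with both agonists. For wild-type cells the counts were 14 to 18 with IFNg, 4 to 9 with Pam3CSK4 and 11 to 16 with both, where 4 came without Pam3CSK4 library 1 or 4 and 5 without vehicle library 4. It gave 0 throughout for the IFNg difference, 12 throughout for the Pam3CSK4 difference and 14 to 17 for the difference with both. The single departure from additivity in each line became 0 to 1. The wild-type departure was 0 without vehicle libraries 1 and 4, with only its own libraries fitted, and with the covariate. The replicate numbers were not taken as pairs; with a replicate block the departures numbered 2 in each line, and the block gave 13 calls for the Pam3CSK4 difference and 17 for the difference with both agonists. It added 14 calls of single members over all contrasts and removed none. Npc1 in wild-type cells changed sign with the covariate, to -0.02 with Pam3CSK4 (edgeR adjusted p = 0.974) and to -0.24 with both agonists (0.0104); the cause was not tested. Depth limits Ch25h and Nr1h3, which have few reads, more than the other members.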

Other observations

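The isoprenoid branch, which takes early pathway products into prenyl groups, dolichol and ubiquinone, had 9 of 14 genes higher and 0 lower in mutant cells given both agonists, and 10 higher and 0 lower in wild-type cells, where 23.7% and 21.2% of all genes were higher. Nus1, a subunit of the enzyme that makes dolichol precursors, had 80.5 ± 2.27 CPM in mutant cells with both agonists and 61.5 ± 2.91 CPM with vehicle (log2 fold change 0.39 ± 0.04, edgeR adjusted p = 4.9e-09). Wild-type cells had 82.0 ± 3.62 CPM with both agonists and 62.8 ± 2.67 CPM with vehicle (log2 fold change 0.39 ± 0.04, edgeR adjusted p = 1e-08). Rabggtb, a subunit of the enzyme that attaches prenyl groups to Rab proteins, had 88.7 ± 2.25 CPM in mutant cells with both agonists and 65.8 ± 1.95 CPM with vehicle, and 88.5 ± 3.31 CPM in wild-type cells with both agonists and 70.7 ± 5.81 CPM with vehicle.

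Among the 4 libraries of a group, library 1 often held the lowest values of the synthesis enzymes. It was lowest for 14, 9, 11 and 8 of 19 enzymes in mutant cells given both agonists, Pam3CSK4, IFNg and vehicle, and for 11, 11, 14 and 6 in the same groups of wild-type cells. The labels do not say that a replicate number marks a shared culture or day. Over all genes the deviations of same-numbered libraries had a median correlation of 0.009, which does not speak for the enzymes alone. How often library 1 was lowest over all genes was not counted.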
